A study of Mus musculus with 9 samples.

Results

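RNA-seq of 9 samples of mouse ovary measured messenger RNA, and 9 genes of bone morphogenetic protein (BMP) signalling are described here, of 55536 genes listed. They were chosen by name: the ligands Bmp2, Bmp4, Bmp6 and Bmp7, the receptor Bmpr1b, and the antagonists Grem1, Nog, Bmper and Bambi. The 3 wild-type ovaries were FOXL2 WT/WT. The 3 hyperplasia samples and the 3 granulosa cell tumour samples were all FOXL2 WT/C134W, heterozygous for a change in FOXL2, a forkhead transcription factor that maintains the granulosa cells around the oocyte. The labels give no age, strain, treatment or construct, and no sample is stated to be a separate animal, so p-values measure the spread between these samples, which may be technical. Hyperplasia 3 and tumour 3 share the stem of their sample names, and whether they come from 1 animal is not stated. Whole ovaries were dissected, so fewer cells of a type and less RNA per cell cannot be told apart in any value below.

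BMP ligands are secreted dimers that bring together type I receptors such as BMPR1B and type II receptors such as BMPR2. The type I receptor then phosphorylates SMAD1, SMAD5 and SMAD9, which enter the nucleus with SMAD4 and switch on targets such as the Id genes. Gremlin 1 and noggin bind ligands outside the cell and keep them from their receptors, BMPER binds ligands and can dampen or promote their action, and BAMBI is a membrane pseudoreceptor without a kinase. In the ovary, BMPs from theca cells, granulosa cells and the oocyte act on granulosa cells, where BMPR1B is a major type I receptor, and Grem1 is made by granulosa cells under the influence of oocyte factors.

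Grem1 and Bmpr1b were the only members whose tumour libraries, in depth-scaled counts, all lay on the same side of all wild-type libraries, and their promoters are shown for that reason. The sequences are RefSeq windows on GRCm38.p6, from 250 bases before to 50 after a start site, in the direction of the gene. Capitals mark matches, on either strand, to GGCGCC, a BMP-SMAD element, and to GTCTG or its complement CAGAC, the SMAD box. Both genes lie on the minus strand, Grem1 at chr2:113758599-113758898 and the most upstream of 3 listed Bmpr1b windows at chr3:141982215-141982514. The Bmpr1b gene as annotated begins farther upstream, at 142169425, so its window is of an internal start site.

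Grem1: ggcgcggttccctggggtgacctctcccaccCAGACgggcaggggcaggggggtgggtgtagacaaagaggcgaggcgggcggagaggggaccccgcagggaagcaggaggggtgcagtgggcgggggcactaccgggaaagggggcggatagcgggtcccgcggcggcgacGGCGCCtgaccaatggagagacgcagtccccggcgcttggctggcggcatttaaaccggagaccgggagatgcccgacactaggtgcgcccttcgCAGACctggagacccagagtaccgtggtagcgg

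Bmpr1b: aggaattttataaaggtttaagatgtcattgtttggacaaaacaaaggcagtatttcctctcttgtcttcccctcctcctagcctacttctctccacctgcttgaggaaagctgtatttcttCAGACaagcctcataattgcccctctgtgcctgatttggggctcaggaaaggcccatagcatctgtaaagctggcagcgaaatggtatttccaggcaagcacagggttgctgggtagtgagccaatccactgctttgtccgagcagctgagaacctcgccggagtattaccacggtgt

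The Grem1 window holds 1 GGCGCC and 2 SMAD boxes and is 70.7% G or C, and the Bmpr1b window holds 1 SMAD box and is 48.3% G or C. Of 32851 windows of 300 bases, 11.9% hold GGCGCC and 49.6% hold GTCTG or CAGAC, so neither match is rare. The forkhead core TAAACA, searched on both strands and found in 13.4% of windows, is in none of the 7 member windows searched, which belong to 5 members. Windows on chr18, where Bambi lies, were left out of the member search. Which start site these ovaries used was not measured, and a match is a run of letters, not a site.

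Library totals ran from 11661820 to 20890487 estimated counts. Levels are compared between libraries in CPM, depth-scaled counts with TMM factors (trimmed means of M-values), and between genes in the deposited TPM, which also divides by transcript length. A gene is called when its adjusted p is below 0.05 by edgeR's quasi-likelihood test with Benjamini-Hochberg adjustment over 16213 genes. Tumour library 2 and wild-type library 1 stood apart from their groups, with mean correlations to the other libraries of the group of 0.899 and 0.916, against 0.933 to 0.961 for the other 7. In both, deviations from the mean over all libraries also ran against gene length, with Spearman's rho over genes of -0.26 and -0.54, against 0.05 to 0.36 in the other 7. Granulosa cell markers were present in all 9 libraries, with a summed level of 910 CPM or more, but Fshr was at 0 in tumour library 2. Foxl2 itself stood at 176 ± 28.6, 217 ± 109 and 294 ± 83.6 CPM in the wild-type, hyperplasia and tumour groups (SD, n = 3), and gene counts cannot show the mutated base.

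In CPM, Grem1 was nearly absent from tumours and Bmpr1b was highest there, while Bmp2, Bmp4 and Bmp7 were high in tumours 1 and 3 and low in tumour 2. None of these differences passed the test over all genes. For tumour against wild type 0 of 9 members were called, where 1.6% of all tested genes were, and 3 members, Grem1, Bmpr1b and Bmp4, had an unadjusted p below 0.05, where 20.1% of genes did. In CPM, groups did not overlap for 2 of the 9, against 24.1% of all genes: 1 was higher (Bmpr1b; 10.7% of genes) and 1 lower (Grem1; 13.4%). The count of called members was 2 with the DESeq2 Wald test (Grem1 and Bmpr1b), 1 without the low-count filter and 1 on log2(TPM + 0.1) (Grem1 both times), and 0 with limma-voom. Among all genes these fits called more than the main fit or about as many: 1747 of 16213, 721 of 28855, 461 of 16213 and 271 of 16213, in that order. The median log2 fold change of the members was 0.87, against 0.01 over all genes.

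In wild-type ovaries Grem1 and Bmpr1b were the most abundant members per transcript length, at 28.2 ± 31.8 and 27.5 ± 13.7 TPM (SD, n = 3). Bmp6 and Bmp2, both at 13.4 TPM, came next with SDs of 8.73 and 5.06, then Bmper at 11.7 ± 11.8, Bambi at 8.85 ± 0.571, Bmp4 at 8.02 ± 1.38, Bmp7 at 4.69 ± 1.31 and Nog at 0.793 ± 0.535 TPM. Only the last steps, Bmp4 to Bmp7 and Bmp7 to Nog, separated neighbours whose 3 libraries did not overlap. In tumours the order of mean TPM was Bmpr1b at 60.1 ± 23.1, Bmp4 at 52.0 ± 48.2, Bmp2 at 39.7 ± 35.7, Bambi at 10.7 ± 3.06, Bmp6 at 10.6 ± 3.64, Bmp7 at 8.35 ± 5.26, Nog at 5.14 ± 7.82, Bmper at 4.09 ± 1.96 and Grem1 at 0.133 ± 0.231. The wild-type mean of Grem1 rests on library 3: its TPM was 14.3, 5.69 and 64.6 in libraries 1 to 3, below Bmpr1b in libraries 1 and 2, and below 6 of the other 8 members in library 2.

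**Figure D1:**
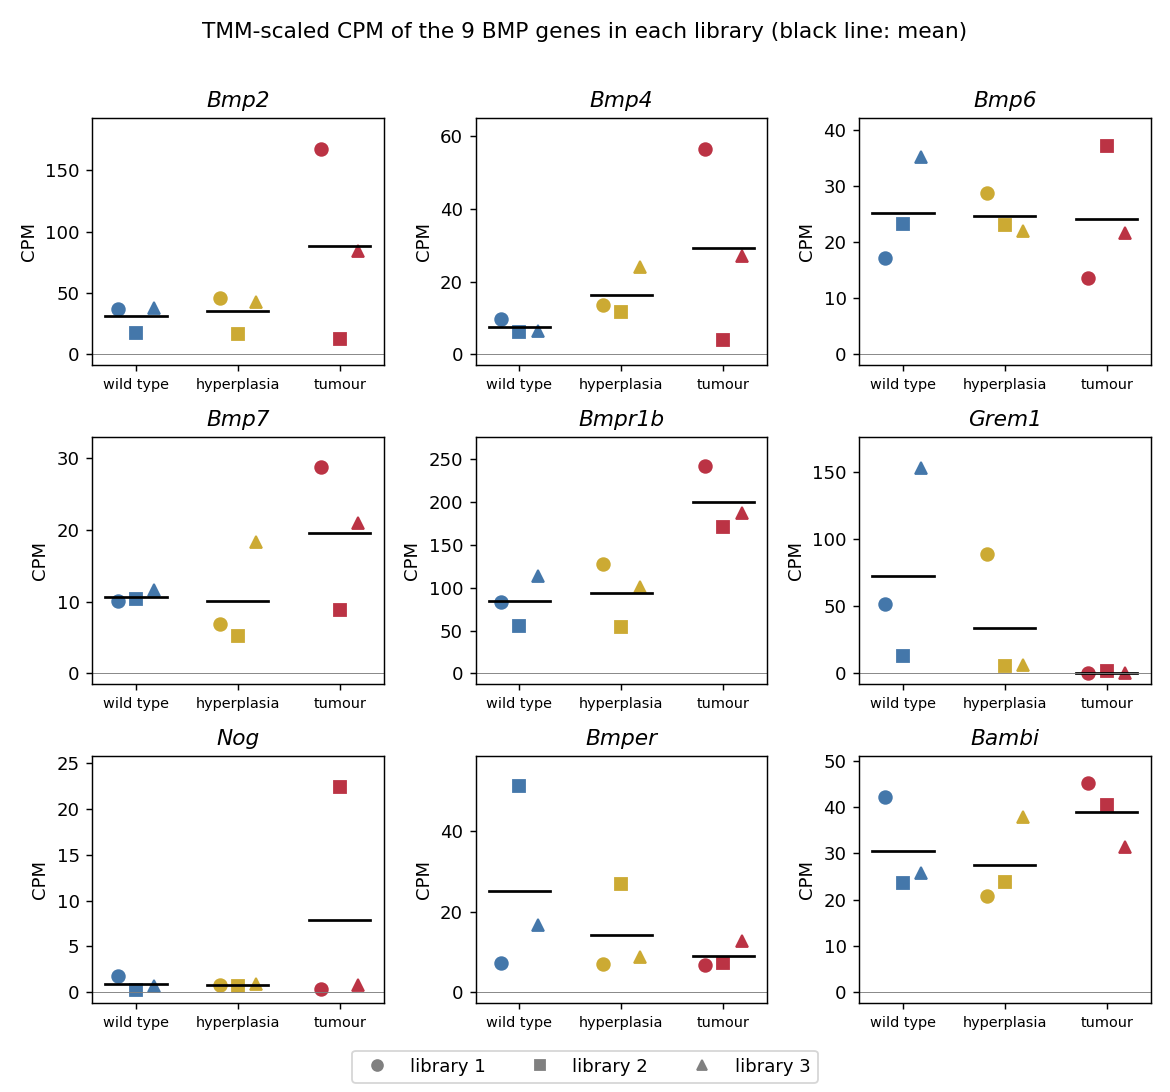
TMM-scaled CPM (vertical axis, linear, a separate scale for each gene) of the 9 BMP genes in the 3 wild-type, 3 hyperplasia and 3 tumour libraries, with 1 symbol per library and a black line at the group mean. All 3 tumour libraries lie below the others for Grem1 and above them for Bmpr1b, while for Bmp2, Bmp4 and Bmp7 tumour library 2 lies at or below the wild-type libraries.

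Bmp2 (chr2:133552159-133562885, plus strand, GRCm38), a ligand that granulosa cells and other ovarian cells can make, measured 37.0, 17.8 and 38.0 CPM in wild-type libraries 1 to 3, 46.2, 16.3 and 42.8 in hyperplasia, and 167, 12.5 and 84.3 in tumours. Tumours 1 and 3 were the highest of all libraries and tumour 2 the lowest, so the groups overlapped. Tumour against wild type gave a log2 fold change of 1.51 (SE 0.77), with an adjusted p of 0.314 by edgeR. Against hyperplasia it was 1.33 (SE 0.77), adjusted p 0.475 by edgeR. Without tumour library 2 the difference from wild type was 2.03, and without tumour library 1 it was 0.65.

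Bmp4 (chr14:46383520-46390669, minus strand), best known in the ovary as a theca cell ligand, measured 9.83, 6.06 and 6.55 CPM in wild type, 13.5, 11.6 and 23.9 in hyperplasia, and 56.6, 3.99 and 27.0 in tumours. All hyperplasia libraries lay above all wild-type ones, whereas the tumours spanned the whole range. The log2 fold change of tumour against wild type was 1.97 (SE 0.75), adjusted p 0.187 by edgeR, and was 2.48 (adjusted p 0.0529 by edgeR) without tumour library 2. Without tumour library 1 it was 1.06. An antisense gene, Gm15217, shares 89 of the 2248 exonic bases of Bmp4 but had at most 4 counts in any library.

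Bmp7 (chr2:172868012-172940321, minus strand), another theca and stromal ligand, measured 10.1, 10.4 and 11.6 CPM in wild type, 6.90, 5.21 and 18.3 in hyperplasia, and 28.8, 8.87 and 20.9 in tumours. Tumour 2 was again below every wild-type library and the other tumours above them. For tumour against wild type the log2 fold change was 0.87 (SE 0.53), adjusted p 0.408 by edgeR, with values of 1.22 without tumour library 2 and 0.48 without tumour library 1.

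The same division of the tumours was seen in the summed levels of ovarian surface epithelium and stromal fibroblast markers. The theca cell sum did not divide this way, but its genes were mixed. The summed level of 5 ovarian surface epithelium markers was 1327, 2.44 and 435 CPM in tumours 1 to 3, against 164 to 181 in wild type and 173 to 566 in hyperplasia. For 5 stromal fibroblast markers it was 2534, 923 and 3025 CPM in tumours, against 1060 to 2483 in wild type and 1738 to 3203 in hyperplasia. Of these markers, Postn was lowest in tumour 1, and Col1a1 in tumours 1 and 3 was within the wild-type range. The 5 theca cell markers summed to 318, 418 and 400 CPM in tumours 1 to 3, against 154.8 to 452.5 in wild type and 116.6 to 466.9 in hyperplasia. Of the tumours, Cyp17a1 was highest in tumour 2, at 115.1, 262.5 and 29.12 CPM in tumours 1 to 3, as was Insl3. Gli1 was lowest in tumour 1. Ptch1, at 173.7, 109.3 and 320.8 CPM against 81.77 to 148.2 in wild type, and Hhip were lower in tumour 2 than in tumours 1 and 3. Among granulosa cell markers, Fshr measured 81.68, 0 and 80.65 CPM in tumours 1 to 3, and Nr5a2 539.3, 167.9 and 453.5. For both, tumours 1 and 3 lay above every wild-type library and tumour 2 below. Foxl2 and Amhr2 were also lowest of the tumours in tumour 2, but above wild type, and Esr2 and Inha were not lowest there. The part of any of these cells in the values of Bmp2, Bmp4 and Bmp7 was not tested. Of the 5 surface epithelium markers all had a log2 fold change above 0 and none was called, and of the 5 stromal markers 3 were above 0 and 1 was called lower. Of the 5 theca markers 3 were above 0 and none was called. No marker of these lists was at 0 over a whole group.

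Bmp6 (chr13:38345107-38500302, plus strand), a ligand of oocytes and granulosa cells, measured 17.1, 23.3 and 35.2 CPM in wild type, 28.8, 23.1 and 22.0 in hyperplasia, and 13.6, 37.2 and 21.6 in tumours. All 3 groups overlapped. Between tumour and wild type the log2 fold change was -0.07, with a 95% interval from -0.94 to 0.81 and an adjusted p of 0.95 by edgeR. This gene is uncertain: 224 of its 3900 exonic bases overlap Txndc5 on the opposite strand, which had 4758 to 6863 counts per library, and its counts were not whole in 7 libraries.

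Bmpr1b (chr3:141837136-142169425, minus strand), the type I receptor, measured 83.4, 54.9 and 114 CPM in wild type, 128, 54.3 and 101 in hyperplasia, and 242, 171 and 187 in tumours. In CPM every tumour library, including library 2, was above every library of the other groups. In TPM the groups overlapped, since tumour 2 at 36.1 TPM lay below wild-type library 3 at 43.1 and hyperplasia library 1 at 44.8. The means were 84.1 ± 29.6, 94.4 ± 37.2 and 200 ± 37.1 CPM (SD, n = 3). The log2 fold change of tumour against wild type was 1.25 (SE 0.36), adjusted p 0.107 by edgeR, and that of tumour against hyperplasia 1.08 (SE 0.36), adjusted p 0.247 by edgeR. Leaving out each library in turn gave values against wild type from 1.01 to 1.53, and the adjusted p was 0.0225 with the DESeq2 Wald test. The summed level of the 6 granulosa cell markers was also highest in tumours. It was 1358 to 2863 CPM in wild type, 910 to 2746 in hyperplasia and 3618 to 4488 in tumours. Inha made up most of the tumour sums, at 2399, 2817 and 3018 CPM. Against wild type 6 of 6 had a log2 fold change above 0, and none was called by edgeR. In tumour 2, however, Fshr at 0 and Nr5a2 at 168 CPM lay below every wild-type library. The part of granulosa cells in the Bmpr1b result was not tested.

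Grem1 (chr2:113746164-113758646, minus strand), the secreted antagonist gremlin 1, measured 51.8, 13.1 and 153 CPM in wild type, 88.6, 5.79 and 6.32 in hyperplasia, and 0, 1.66 and 0 in tumours. All 17 tumour counts came from library 2, and the tumours lay below every other library, while wild type and hyperplasia overlapped widely. Over the pooled tumours the level was 0.456 CPM, with an exact Poisson 95% interval from 0.266 to 0.730 that covers counting error only. Against wild type the tumours had a log2 fold change of -7.17 (SE 1.82), adjusted p 0.0758 by edgeR, and against hyperplasia -6.06 (SE 1.76), adjusted p 0.19 by edgeR. Tumours 1 and 3 alone had 0 counts, which at a floor of 3 counts over both makes Grem1 at least 653-fold lower there than the wild-type mean and at least 302-fold lower than the hyperplasia mean. These bounds rest on single libraries: they were 292-fold without wild-type library 3 and 54.6-fold without hyperplasia library 1. With tumour 2 included, the ratio of the wild-type mean to the tumour mean was 131. Leaving out each library in turn gave log2 fold changes of tumour from -13.26 to -5.99 against wild type and from -12.15 to -3.58 against hyperplasia. The lowest of each was without tumour library 2, where the fitted value is no bound, and the highest were without wild-type library 3 and without hyperplasia library 1.

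Against wild type Grem1 was called by the DESeq2 Wald test (adjusted p 0.00739), without the low-count filter (adjusted p 0.0209 by edgeR) and on log2(TPM + 0.1) (adjusted p 0.0200 by limma), and in no fit with a library left out. Markers of several cell types were also lower in the tumours. The 5 luteal markers summed to 7178 to 13720 CPM in wild type, 3120 to 8956 in hyperplasia and 901 to 1528 in tumours. The 7 oocyte markers summed to 121 to 159, 1.92 to 69.5 and 0.198 to 0.420 CPM, with Zp2 and Zar1 at 0 in every tumour. The 5 adipocyte markers summed to 60.6 to 124, 21.6 to 52.2 and 13.1 to 18.3 CPM, with Adipoq, Cfd and Retn at 0 in every tumour, and the 5 macrophage markers to 129 to 217, 154 to 206 and 70.0 to 89.7 CPM. Against wild type edgeR called 3 of 5 luteal, 7 of 7 oocyte, 1 of 5 adipocyte and 1 of 5 macrophage markers lower, and all of these markers had a log2 fold change below 0. Granulosa cell markers, given beside Bmpr1b, were not lower, with 6 of 6 above 0. Also above 0 were 5 of 5 surface epithelium, 3 of 5 theca, 3 of 5 stromal fibroblast, 1 of 5 endothelium and 0 of 5 smooth muscle markers. The part of any of these cells in the Grem1 result was not tested.

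Nog (chr11:89300638-89302332, minus strand), which encodes noggin, was low in 8 libraries and high in 1. It measured 1.84, 0.235 and 0.689 CPM in wild type, 0.856, 0.724 and 0.910 in hyperplasia, and 0.331, 22.3 and 0.839 in tumours, where the counts were 5, 229 and 10. The log2 fold change of tumour against wild type was 3.06 (SE 1.38), adjusted p 0.256 by edgeR, and without tumour library 2 it was -0.68. A value for the tumour group as a whole therefore rests on 1 library.

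Bmper (chr9:23223076-23485200, plus strand), the secreted modulator, measured 7.25, 51.0 and 16.8 CPM in wild type, 7.01, 26.8 and 8.76 in hyperplasia, and 6.68, 7.40 and 12.8 in tumours. Library 2 was the highest of both the wild-type and the hyperplasia group, and the tumours lay within the wild-type range but for library 1, just below it. The log2 fold change of tumour against wild type was -1.48 (SE 0.74), adjusted p 0.303 by edgeR, and -0.44 without wild-type library 2. The summed level of 5 smooth muscle markers was also highest in those libraries of their groups, at 1138, 1748 and 850 CPM in wild type and 3145, 4294 and 1754 in hyperplasia, against 269 to 730 in tumours, and its part was not tested. All 5 had a log2 fold change below 0 in tumours against wild type, and none was called.

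Bambi (chr18:3507923-3516404, plus strand), the pseudoreceptor, measured 42.2, 23.6 and 25.7 CPM in wild type, 20.8, 23.7 and 37.9 in hyperplasia, and 45.2, 40.4 and 31.3 in tumours. The groups overlapped, and the log2 fold change of tumour against wild type was 0.35, with a 95% interval from -0.36 to 1.06 and an adjusted p of 0.581 by edgeR.

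**Figure D2:**
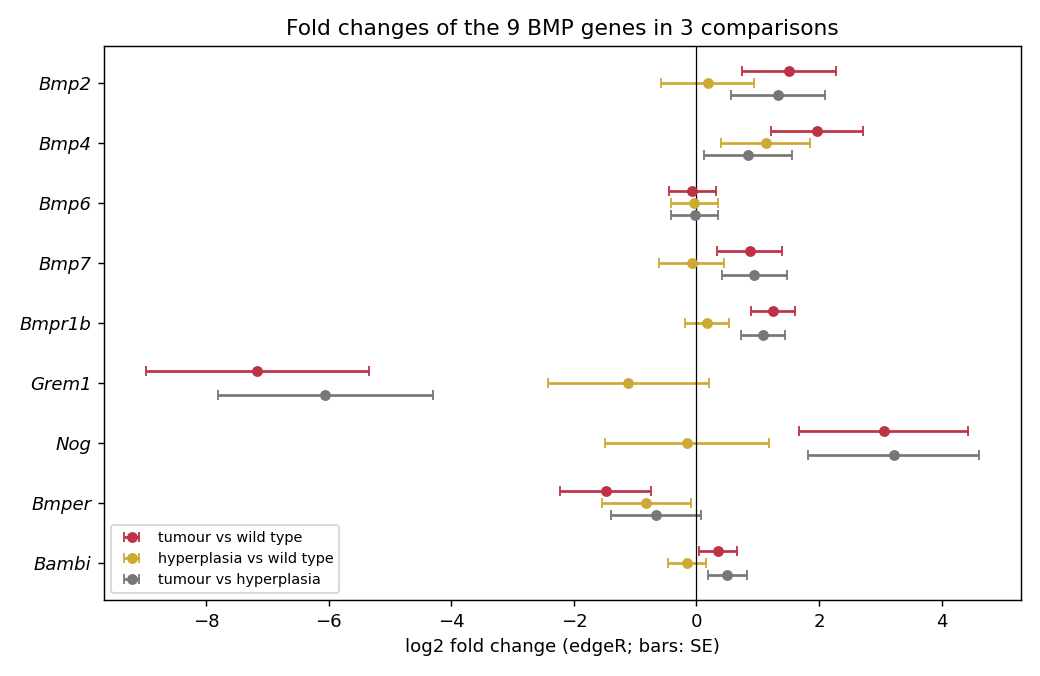
Log2 fold change (horizontal axis) of each of the 9 BMP genes by edgeR, with bars of 1 standard error to each side, for tumour against wild type (red), hyperplasia against wild type (yellow) and tumour against hyperplasia (grey). The bars of Grem1 and Nog are the widest, and the 3 values of Bmp6 lie within 0.07 of 0.

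Summed over the 4 ligand and 4 antagonist members, the balance of ligand to antagonist messenger RNA differed more among the tumours than among wild-type ovaries. The TPM of the 4 ligands was 27.3, 34.6 and 56.6 in wild type, 57.9, 32.8 and 65.6 in hyperplasia, and 194, 21.7 and 117 in tumours. The TPM of the 4 antagonists was 27.3, 39.1 and 82.2 in wild type, 48.8, 24.0 and 20.0 in hyperplasia, and 17.6, 25.1 and 17.6 in tumours. The ratio of these sums was 0.688 to 1.00 in wild type and 1.19 to 3.29 in hyperplasia. In tumours it was 11.1, 0.863 and 6.61, so libraries 1 and 3 were above all others and library 2 was within the wild-type range. Bmp2 and Bmp4 made up 90.2%, 32.8% and 79.9% of the ligand TPM in tumours 1 to 3. These sums were given no test, and 15 other extracellular modulators of the pathway together had 380 to 669 TPM in each library, far more than the 4 antagonists. The 11 other ligand genes summed to 43.99, 50.25 and 77.76 TPM in wild type, above the 4 ligands in each library. Their sums were 55.9, 15.38 and 25.21 TPM in hyperplasia and 56.08, 53.82 and 42.82 in tumours. In tumour 2 this was above the 4 ligands, with Bmp3 alone at 50.73 TPM.

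**Figure D3:**
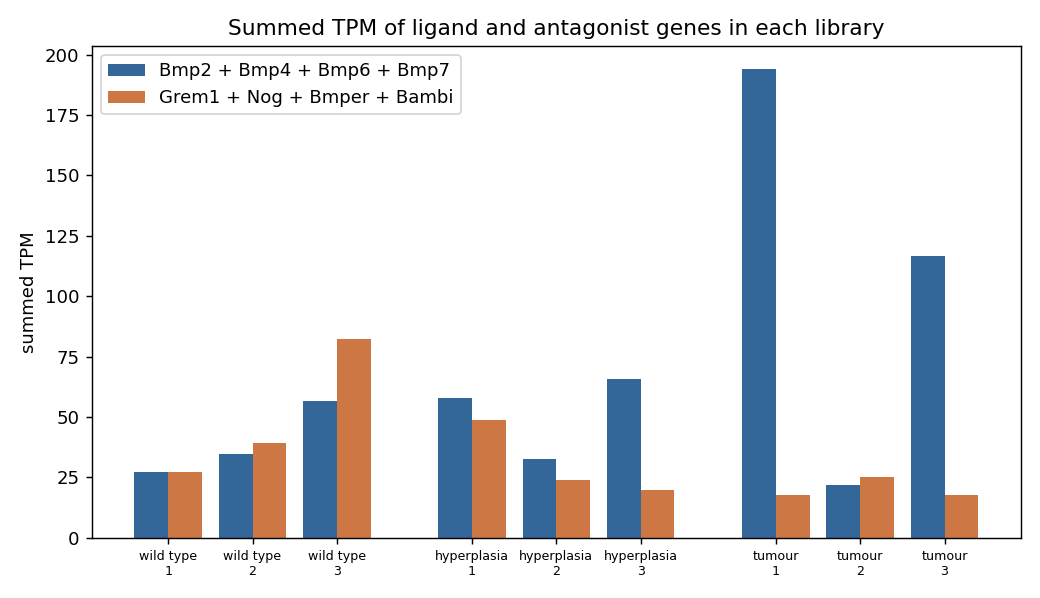
Summed TPM (vertical axis, linear from 0) of the 4 ligand genes (blue bars) and the 4 antagonist genes (orange bars) in each of the 9 libraries. Tumours 1 and 3 have 194 and 117 TPM of ligand beside 17.6 TPM of antagonist, whereas tumour 2 has 21.7 beside 25.1.

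For hyperplasia against wild type edgeR called 0 of 9 members and 0% of all genes, and 0 of 9 had an unadjusted p below 0.05 (3.53% of all genes). By the DESeq2 Wald test and limma-voom the count was 0 as well. Groups did not overlap for 1 of 9 members, Bmp4, against 9.81% of all genes in either direction and 4.65% higher, as Bmp4 was. Its log2 fold change was 1.13, with a 95% interval from -0.52 to 2.78. Grem1 was at -1.11 (95% interval -4.07 to 1.85), or 0.05 without wild-type library 3, and Bmper at -0.82 (95% interval -2.46 to 0.81). With intervals of this width, the absence of calls does not show that the groups were alike. The median over the members was -0.07.

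Tumours against hyperplasia gave 0 of 9 members called by edgeR, where 0.185% of all genes were, and 3 with an unadjusted p below 0.05 (Grem1, Bmpr1b and Nog), against 14.1% of genes. The same count was 0 by the DESeq2 Wald test and by limma-voom. Groups did not overlap for 2 of 9 against 21.9% of all genes, with Bmpr1b higher (9.56% of genes) and Grem1 lower (12.4%). This comparison and that with wild type share the tumour libraries, so their values are not independent. For the mean of both mutant groups against wild type, 0 of 9 members were called by edgeR (0.0123% of all genes), 2 had an unadjusted p below 0.05 (11.8% of genes), none had groups that did not overlap (4.31% of genes), and DESeq2 and limma-voom called 0. Grem1 was at -4.14 (SE 1.19), adjusted p 0.197 by edgeR, and Bmp4 at 1.55 (SE 0.67), adjusted p 0.414 by edgeR.

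Of 49 other genes of the pathway, 38 were tested. For tumour against wild type 3 of them were called, all lower and none higher, where 1.25% of all genes were called lower and 0.352% higher. The median log2 fold change was -0.22. All 3 lie downstream of the receptors: Id4 and Id2, inhibitors of basic helix-loop-helix factors that BMPs induce, and Smad9, a receptor-activated SMAD.

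Id4 measured 17.6, 12.9 and 8.84 CPM in wild type, 18.8, 11.5 and 8.19 in hyperplasia, and 1.59, 1.07 and 1.60 in tumours. It fell by 3.20 on the log2 scale against wild type (SE 0.44, adjusted p 0.0293 by edgeR) and fell by 3.17 against hyperplasia (SE 0.44, adjusted p 0.0363 by edgeR). Id2 measured 195, 138 and 65.1 CPM in wild type, 93.9, 117 and 83.5 in hyperplasia, and 21.3, 20.4 and 39.5 in tumours, and fell by 2.29 against wild type (SE 0.42, adjusted p 0.0443 by edgeR). Smad9 measured 12.2, 24.8 and 18.2 CPM in wild type, 12.5, 20.1 and 9.05 in hyperplasia, and 2.71, 0.487 and 2.69 in tumours, and fell by 3.21 (SE 0.61, adjusted p 0.0453 by edgeR). In all 3 the tumours lay below every other library. The luteal, oocyte, adipocyte and macrophage markers given beside Grem1 and the smooth muscle markers given beside Bmper were lower in sum in the same tumours, and the part of those cells in these 3 results was not tested.

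The calls against wild type were close to the threshold. None was made once any 1 wild-type or tumour library was left out, where the count of called pathway genes was 0 each time. Nor was any made in the fit with a term for the sample-name stem that hyperplasia 3 and tumour 3 share, where 0 of all 16213 genes were called. The adjusted p over all alternatives reached 0.117 for Id4, 0.129 for Id2 and 0.127 for Smad9, and the direction was lower throughout. Of 17 alternatives, Id4 was called in 10, and Id2 and Smad9 in 7 each. Tumours against hyperplasia gave 1 called pathway gene, Id4, of 38 (0.185% of all genes were called). In that comparison Id4 was called in 6 of 17 alternatives, with an adjusted p of up to 0.218 by edgeR, and Id2 and Smad9 in 2 each. Hyperplasia against wild type gave 0 by edgeR, the DESeq2 Wald test and limma-voom, with 3 of 38 at an unadjusted p below 0.05 (3.53% of all genes). The mean of both mutant groups gave 0 by edgeR (0.0123% of all genes), with 13 of 38 at an unadjusted p below 0.05 (11.8%). By the DESeq2 Wald test it gave 8, where 591 of 16213 genes were called, and by limma-voom 1, where 198 were. The other 4 targets tested did not pass the test against wild type and had no common direction. Msx1, a homeobox factor, was at 3.36 (adjusted p 0.0949 by edgeR), with 2.78, 1.94 and 1.44 CPM in wild type and 8.33, 45.0 and 10.4 in tumours, all above wild type. Id1 was at -1.10, Id3 at -0.63 and Atoh8 at 0.45, with adjusted p of 0.224, 0.481 and 0.404 by edgeR.

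The remaining lists held no called gene. Among 5 other ligands tested, the oocyte factors Gdf9 and Bmp15 had mean levels of 40.8 ± 7.78 and 17.8 ± 3.09 CPM in wild type and 2.56 ± 1.79 and 0.0441 ± 0.0764 CPM in tumours (SD, n = 3), with adjusted p of 0.0537 and 0.0613 by edgeR. Bmp15 had 2 counts over the tumours and 966 over wild type. In these pooled counts, scaled for depth, rather than in the means, the wild-type level was 330.2 times as high, with an exact 95% counting interval from 91.2 to 2730. Oocyte markers were at or near 0 in the same libraries, as given above. Bmp3, a ligand that can oppose other BMPs, measured 34.0, 13.5 and 54.5 CPM in wild type, 107, 25.0 and 85.2 in hyperplasia, and 180, 280 and 151 in tumours, above every other library, with a log2 fold change of 2.58 against wild type and an adjusted p of 0.069 by edgeR. Among 9 other receptors, Acvrl1, the type I receptor of endothelium, was at -0.88 (adjusted p 0.069 by edgeR). Among 12 other modulators, Tll1, a protease that cleaves chordin, was at -3.57 (adjusted p 0.069 by edgeR), and Crim1, a membrane protein that binds BMPs, at 1.25 (adjusted p 0.0905 by edgeR).

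**Figure D4:**
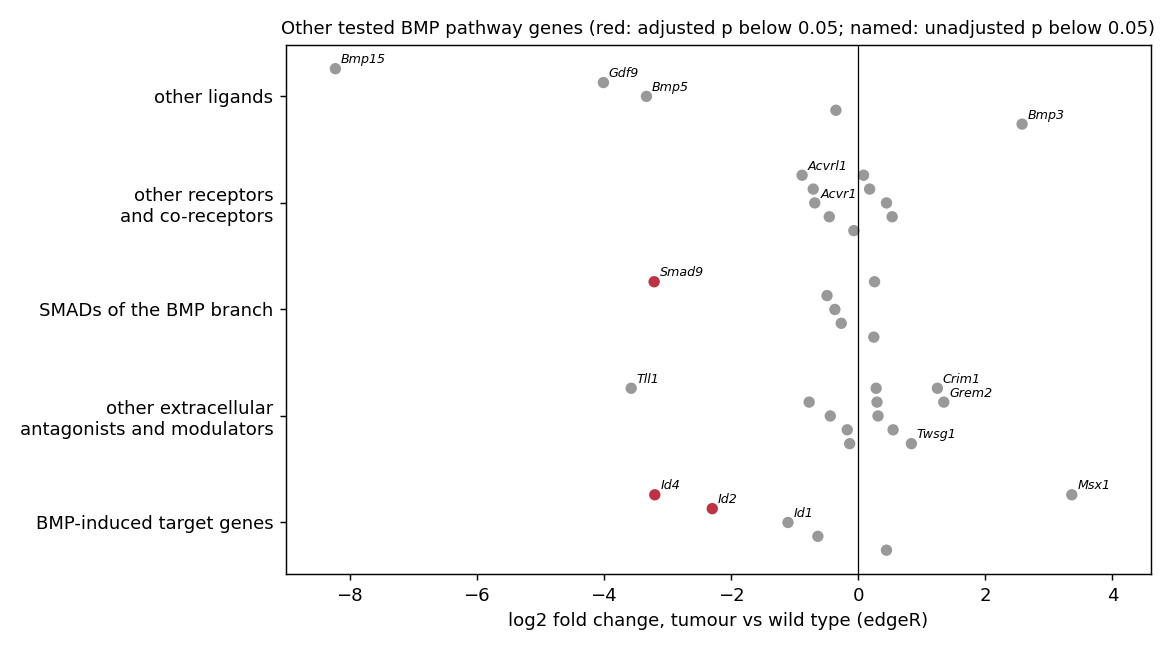
Log2 fold change of tumour against wild type (horizontal axis) by edgeR for each tested gene of the 5 pathway lists, with 1 point per gene, red for an adjusted p below 0.05 and a name for an unadjusted p below 0.05. The red points are Id4, Id2 and Smad9, all below 0.

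For the 4 members with the most variable profiles, the genes whose log2 CPM profile over the 9 libraries was nearest were found by the root mean square difference of centred profiles among 13499 genes. For Bmp2 they were Dpp10 (0.318) and Sh2d4a (0.382), and for Bmp4 Fgf18 (0.219) and Crygb (0.278), all of which had their lowest tumour level in library 2. For Nog they were Ctrb1 (0.331) and Rnd1 (0.440), which were also high in tumour library 2 alone, at 13.2 and 28.2 CPM. For Grem1 the nearest were Jchain (1.26) and Zp2 (1.27), farther away than the nearest genes of the other 3. The distance is not scaled by spread, and the SD of log2 CPM was 3.04 for Grem1 against 1.16 to 1.48 for the other 3. Dpp10, Fgf18, Crygb and Ctrb1 were below 1 CPM in several libraries, where the 0.5 CPM added before logs weighs on the match.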

How the data were processed

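RNA was extracted from dissected ovaries with Trizol and sequenced with a stranded TruSeq mRNA kit, per the labels' protocols. The submitters' processing notes name STAR 2.7.1a, RSEM 1.3.1, Picard 2.8.1, FastQC and GRCm38 without their roles, and no source used here gives the strand setting. The authors deposited 1 RSEM gene table a sample. Its expected counts, as deposited, are unscaled, and 25.6% of those above 0 are not whole. Its deposited TPM is scaled for length and depth, and its deposited FPKM was not used. Identifiers were named from GENCODE M21, in which all 55536 were found.

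Expected counts were rounded. edgeR 4.0.16 (R 4.3.3) was run with TMM factors of 0.797 to 1.078, filterByExpr (count minimum 10, total minimum 15) and 1 quasi-likelihood fit of 9 libraries in 3 groups. The fit was also run on simulated counts. These had the same spread for all genes and no outlying library, so that run does not cover libraries that stood apart here. P-values were adjusted by Benjamini-Hochberg over 16213 genes, with a threshold of 0.05. A 95% interval of a log2 fold change uses the t distribution of that test. A floor of 3 counts is 0.144 to 0.292 CPM in single libraries, and intervals on counts cover counting error only. All library pairs differed far beyond sampling noise (chi-square per degree of freedom of at least 25.0), so each was counted once. Alternatives were DESeq2 1.42.0 (size factors and Wald test), limma 3.58.1 (voom, log2(TPM + 1) and log2(TPM + 0.1)), no low-count filter, only the groups compared, a term for a shared sample-name stem, and leaving out each library.

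The 9 members, the 49 pathway genes and the 53 marker genes were chosen with earlier results of these data known. All members are named, with every called pathway gene otherwise up to 3 per list with the smallest adjusted p, the rest of the target list (added after its values were seen), and the 2 nearest profiles of members with an SD of log2 CPM of at least 1, among genes whose mean reaches 1 CPM.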

Additional observations from a re-analysis of the deposited data

How the results depend on the processing

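No paired analysis was possible because replicate numbers follow the order of deposition and only hyperplasia 3 and tumour 3 share a sample-name stem. A term for that stem is among the alternatives, and whether it marks 1 animal is not stated. The count of called members was 0 for tumour against wild type and became 2 with the DESeq2 Wald test, 1 without the low-count filter and 1 on log2(TPM + 0.1). Calls among all genes tested also rose in these 3 fits, from 259 to 1747, 721 and 461. In the other 3 comparisons, and with any library left out, it was 0. The fit of only the groups compared gives no value for both mutant groups against wild type.

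Changes of sign concerned small or variable differences. Against wild type, the log2 fold change of Bmp6 in tumours was 0.0092 with the sample-name term, and in hyperplasia 0.027 with limma-voom, 0.097 on log2(TPM + 1), 0.12 on log2(TPM + 0.1) and 0.041 with the sample-name term. For both mutant groups it was 0.025 with that term. Nog in hyperplasia was at 0.24, 0.14, 0.39 and 0.48 under the same 4 settings in that order. Bambi in hyperplasia was at 0.019 on log2(TPM + 1) and 0.018 on log2(TPM + 0.1). Id4 in hyperplasia was at 0.10, 0.11 and 0.049 on log2(TPM + 1), log2(TPM + 0.1) and with the sample-name term, alternatives computed for pathway genes after seeing the data. The cause was not tested.

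Leaving out each library, tumour against wild type ranged from -0.52 to 0.25 for Bmp6 and -0.68 to 4.05 for Nog. Hyperplasia against wild type ranged from -0.085 to 0.54 for Bmp2, -0.25 to 0.28 for Bmp6, -0.82 to 0.24 for Bmp7, -0.11 to 0.46 for Bmpr1b, -3.58 to 0.050 for Grem1, -0.59 to 0.84 for Nog, -1.65 to 0.24 for Bmper, -0.45 to 0.16 for Bambi and -0.41 to 0.24 for Id4. Tumour against hyperplasia ranged from -0.075 to 1.35 for Bmp4, -0.49 to 0.25 for Bmp6, -0.52 to 3.78 for Nog and -1.01 to 0.16 for Bmper. Both mutant groups against wild type ranged from -0.28 to 0.27 for Bmp6, -0.42 to 2.44 for Nog and -0.057 to 0.41 for Bambi. Of the member values under alternatives, 557 kept their direction and side of the threshold, 42 changed sign and 4 passed the threshold anew.

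Called pathway genes for tumour against wild type were 12 with the DESeq2 Wald test, 8 without the filter, 6 on either TPM scale and 0 with the sample-name term. All called genes in that comparison were 259, against 1747 with the DESeq2 Wald test, 721 without the filter, 428 on log2(TPM + 1), 461 on log2(TPM + 0.1), 0 with the sample-name term and 0 to 404 with a library left out. With 3 libraries a group, the median SE of a log2 fold change was 0.38.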
